A study of Mus musculus with 12 samples.

Results

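The nuclear genes for subunits of the oxidative phosphorylation system (OXPHOS) were taken by symbol: names beginning with Ndufa, Ndufb, Ndufc, Ndufs, Ndufv, Uqcr, Cox4i, Cox5, Cox6, Cox7, Cox8 or Atp5, together with Sdha, Sdhb, Sdhc and Sdhd. Assembly factors beginning with Ndufaf, names containing -ps and names ending in os were left out. This gave 89 of the 55228 genes counted in each library, and 85 of the 89 passed the filter on low counts and were tested. By symbol stem, 39 of the tested genes fell in complex I (Nduf), 4 in complex II (Sdh), 8 in complex III (Uqcr), 17 in complex IV (Cox) and 17 in complex V (Atp5).

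The libraries held poly(A) RNA of bladder and urethral mesenchyme from CD-1 mouse embryos, an outbred stock, with no mutation or treatment in any group. The 4 groups were bladder mesenchyme at E18.5, urethral mesenchyme at E18.5, bladder mesenchyme at E14.5 and urethral mesenchyme at E14.5, where E gives the embryonic day, and each group had 3 libraries, from 3 independent litters. Each library was made from tissue pooled over the female embryos of 1 litter, after the epithelium had been loosened with cold trypsin and pulled away by hand, so a library is an average over several embryos and over all cells left in the mesenchymal layer. The study asked which genes differ between the compartments.

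OXPHOS couples the oxidation of NADH and succinate to the making of ATP at the inner mitochondrial membrane. Complex I takes electrons from NADH and complex II from succinate, ubiquinone carries them to complex III, cytochrome c carries them on to complex IV, and complex V uses the proton gradient built on the way to make ATP. Most subunits are encoded in the nucleus and a small core set in the mitochondrial genome. Several complex IV subunits exist as pairs of genes, a widely expressed one and one known from contractile tissues, lung or low oxygen.

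Total counts ranged from 21495169 to 36349777 per library. All 37 mitochondrially encoded genes held 0 counts in every library, so the mitochondrial part of complexes I, III, IV and V was not analysed here. Levels are CPM (counts scaled to a common TMM-adjusted library total), a scaling that assumes most genes do not differ, or CPM per kilobase of exon (RPKM) where genes are compared with each other. The TMM factors were 0.832 to 0.919 in E18.5 bladder libraries and 1.068 to 1.091 in E18.5 urethral libraries. All 8 mesenchyme markers were detected in the labelled tissue, with summed levels of 26429 to 31989 CPM in E18.5 bladder, 15145 to 17084 in E18.5 urethra, 18186 to 24789 in E14.5 bladder and 8032 to 11948 in E14.5 urethra. The 11 epithelial markers were not absent: they summed to 7480 to 9995 CPM in E18.5 bladder and 3202 to 4780 in E18.5 urethra, and to 214 to 1216 in E14.5 bladder and 757 to 1838 in E14.5 urethra.

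Start regions of 5 widely expressed or restricted complex IV genes described below are shown first. Among them only Cox8a and Cox8b are partners that went opposite ways between the compartments, and no region was held for Cox6a2. Any link between these regions and the levels was not tested. Cox6a1, Cox8a and Cox7a2 are the widely expressed forms, Cox8b and Cox7a1 the forms known from heart and skeletal muscle. Each line gives 250 bases before to 50 bases after the RefSeq start in GRCm38.p6, 5′ to 3′ along the gene. Capitals mark matches on either strand to a core site of NRF1 (a regulator of mitochondrial genes), in which 1 central base was free, CCGGAAG (ETS factors, GABPA among them), TNAAGGTCA (oestrogen-related receptors), TATAAA (the TATA box) or CAGCTG (an E-box of myogenic factors).
Cox6a1, chr5:115348909-115349208, minus strand: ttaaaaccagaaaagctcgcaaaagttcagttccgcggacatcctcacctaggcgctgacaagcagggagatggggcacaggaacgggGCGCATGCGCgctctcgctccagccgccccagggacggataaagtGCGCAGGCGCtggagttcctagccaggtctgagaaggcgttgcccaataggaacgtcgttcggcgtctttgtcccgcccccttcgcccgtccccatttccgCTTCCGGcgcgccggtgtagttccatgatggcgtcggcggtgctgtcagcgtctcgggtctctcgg
Cox8a, chr19:7217567-7217866, minus strand: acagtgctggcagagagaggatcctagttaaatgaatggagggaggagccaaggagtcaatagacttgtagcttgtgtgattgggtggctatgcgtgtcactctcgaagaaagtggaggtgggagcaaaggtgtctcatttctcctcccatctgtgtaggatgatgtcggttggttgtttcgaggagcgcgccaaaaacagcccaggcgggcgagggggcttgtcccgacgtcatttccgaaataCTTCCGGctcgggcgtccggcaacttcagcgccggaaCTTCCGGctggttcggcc
Cox7a2, chr9:79759804-79760103, minus strand: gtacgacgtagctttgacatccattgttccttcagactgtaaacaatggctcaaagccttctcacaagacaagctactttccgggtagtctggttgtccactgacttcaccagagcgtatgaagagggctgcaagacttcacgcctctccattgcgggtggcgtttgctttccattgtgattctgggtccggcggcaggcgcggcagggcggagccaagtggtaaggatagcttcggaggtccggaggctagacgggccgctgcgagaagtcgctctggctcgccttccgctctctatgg
Cox8b, chr7:140900397-140900696, minus strand: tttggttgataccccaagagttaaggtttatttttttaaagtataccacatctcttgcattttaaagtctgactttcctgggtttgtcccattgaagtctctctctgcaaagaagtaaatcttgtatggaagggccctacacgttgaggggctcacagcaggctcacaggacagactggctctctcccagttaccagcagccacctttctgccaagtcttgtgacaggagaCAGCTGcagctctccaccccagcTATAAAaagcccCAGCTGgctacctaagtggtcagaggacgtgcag
Cox7a1, chr7:30183921-30184220, plus strand: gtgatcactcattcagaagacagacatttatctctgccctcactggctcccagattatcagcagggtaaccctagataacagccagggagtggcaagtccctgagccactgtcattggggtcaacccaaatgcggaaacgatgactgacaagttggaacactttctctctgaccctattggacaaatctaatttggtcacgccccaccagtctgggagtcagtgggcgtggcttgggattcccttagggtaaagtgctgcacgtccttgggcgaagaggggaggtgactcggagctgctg
The Cox6a1 region held 32 CG pairs and 3 matches, 2 of them to the NRF1 letters. The Cox8a region held 19 CG pairs and 2 matches to the ETS letters, and the Cox7a2 region held 20 CG pairs and no match. In contrast, the Cox8b region held 2 CG pairs, 1 TATA box and 2 E-box matches, and the Cox7a1 region 7 CG pairs and no match. Start regions were held for 68 of the 89 subunit genes, with a median of 19 CG pairs, against 21 over 12724 tested genes and 8 over all 27025 genes in the table. The NRF1 letters were in 25% of the 68, against 9.86% of tested genes and 5.19% of all genes, and the ETS letters in 25%, against 17.3% and 9.93%. The receptor letters were in 4.41% (against 0.92% and 1.43%), the TATA box in 11.8% (against 9.6% and 15.7%) and the E-box in 8.82% (against 18.9% and 18.3%). A match is a run of letters in this window and no evidence of binding.

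Taken as a sum, the 89 genes were higher in bladder than in urethral mesenchyme at both stages. At E18.5 they summed to 10974, 13216 and 12261 CPM in bladder libraries, against 7389, 8044 and 8141 in urethral libraries. At E14.5 they summed to 13028, 11561 and 13276 CPM in bladder libraries, against 9321, 9484 and 8914 in urethral libraries. No bladder library lay as low as any urethral library of its stage, and the ratio of the group means was 1.55 at E18.5 and 1.37 at E14.5. As a share of all counts, without TMM scaling, the same genes held 1.06% ± 0.127 in E18.5 bladder and 0.849% ± 0.0441 in E18.5 urethra, and 1.24% ± 0.11 in E14.5 bladder and 0.995% ± 0.058 in E14.5 urethra (SD, n = 3 each). In these bulk samples fewer cells of a type and less RNA per cell cannot be told apart.

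**Figure D1:**
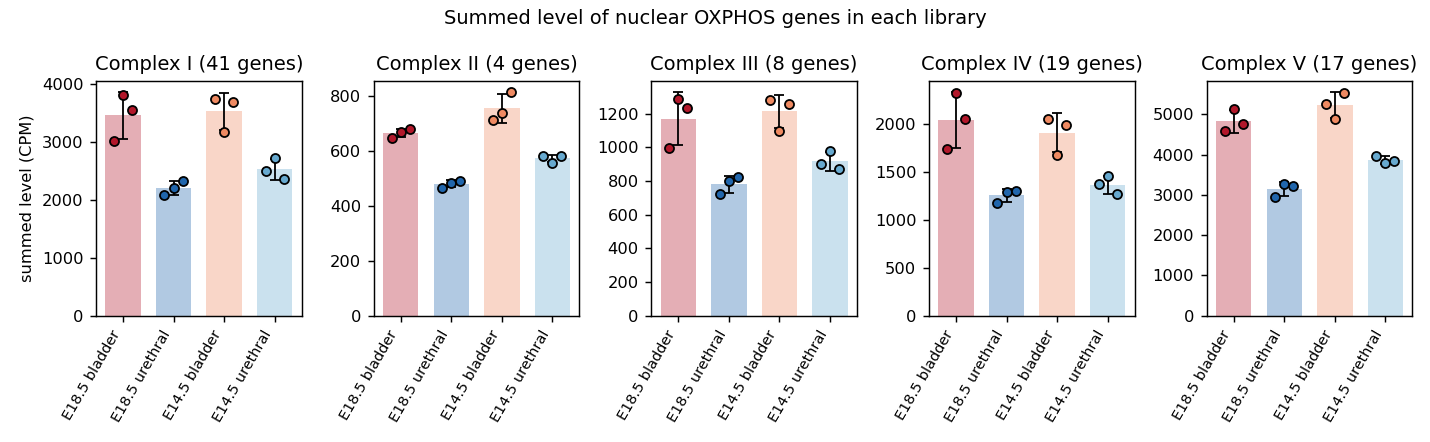
Summed level (CPM) of the subunit genes of each complex in each library, as points, with bars for the group mean and error bars for the SD (n = 3). In every complex the 3 bladder libraries of a stage lie above the 3 urethral libraries of the same stage.

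The ratio of bladder to urethra was alike across the 5 complexes. At E18.5 it was 1.57 for complex I, 1.38 for complex II, 1.5 for complex III, 1.63 for complex IV and 1.54 for complex V. At E14.5 it was 1.40, 1.32, 1.32, 1.40 and 1.35 for complexes I to V in that order. The complex I sum takes in Ndufa4l2 and Ndufa4, the called genes of that stem with the largest differences at E18.5. By gene, the median log2 difference in complex I was 0.50 at E18.5 and 0.48 at E14.5. At E18.5 the medians of complexes II to V were 0.47, 0.70, 0.62 and 0.59. Complex II, the one that is also an enzyme of the citric acid cycle, was lowest or level with the lowest at both stages, with summed levels of 648 to 677 CPM in E18.5 bladder and 466 to 491 in E18.5 urethra.

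Gene by gene at E18.5, 64 of the 85 tested genes were called higher in bladder and 2 lower by edgeR's quasi-likelihood test (adjusted p under 0.05 over all 18805 tested genes). Over all genes, 18.52% were called higher and 16.24% lower. The median log2 difference of the 85 was 0.56, against 0.05 over all genes. Calls were spread over the complexes: 31 of 39 in complex I, 2 of 4 in complex II, 6 of 8 in complex III, 13 of 17 in complex IV and 12 of 17 in complex V were higher. The 64 differences ran from 0.29 to 2.2, and only 5 of them exceeded 2-fold, so the pattern was mostly one of many small shifts in 1 direction. With plain library totals in place of TMM, the median over all genes moved to -0.26 and that of the 85 to 0.25. Of the 85, 22 were then called higher and 2 lower, against 10% and 30% of all genes.

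At E14.5, 48 of the 85 were called higher in bladder and 0 lower (edgeR, adjusted p under 0.05), while 12.42% of all genes were called higher and 12.45% lower. At an unadjusted p under 0.05 the counts were 62 higher and 0 lower. DESeq2 called 53 higher and 0 lower, against 14.5% and 15% of all genes. The median log2 difference was 0.48, against 0.00 over all genes, and 82 of the 85 estimates were above 0. By complex, 25 of 39, 3 of 4, 4 of 8, 7 of 17 and 9 of 17 genes of complexes I to V were higher. In all, 43 genes were called higher in bladder at both stages, which is 67.2% of the E18.5 calls and 89.6% of the E14.5 calls. Over all genes, 1324 were higher in bladder at both stages, or 38% and 56.7% of those calls. The E14.5 count rested on few libraries: it was 28 without bladder replicate 1, 19 without bladder replicate 3, 19 without urethral replicate 3 and 24 without replicate 1 of both compartments. Those fits called 11.2%, 7.52%, 7.25% and 11.3% of all genes higher, in the same order.

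Gene length and single libraries moved with these counts. Over all genes the log2 difference fell with exon length, at a Spearman rho of -0.06 at E18.5 and -0.21 at E14.5 across 18805 genes, which are not independent. The subunit genes are short, with a median of 1550 bases of exon against 3777 over all tested genes. With the length trend taken out of the fit, 62 genes were called higher and 2 lower at E18.5 and 34 higher and 0 lower at E14.5. Within a group, 1 library often held the lowest level of most genes: E18.5 bladder replicate 1 was lowest of its 3 for 66 of the 85, E18.5 urethral replicate 1 for 65 and E14.5 bladder replicate 2 for 66. Why these libraries ran low was not tested.

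**Figure D2:**
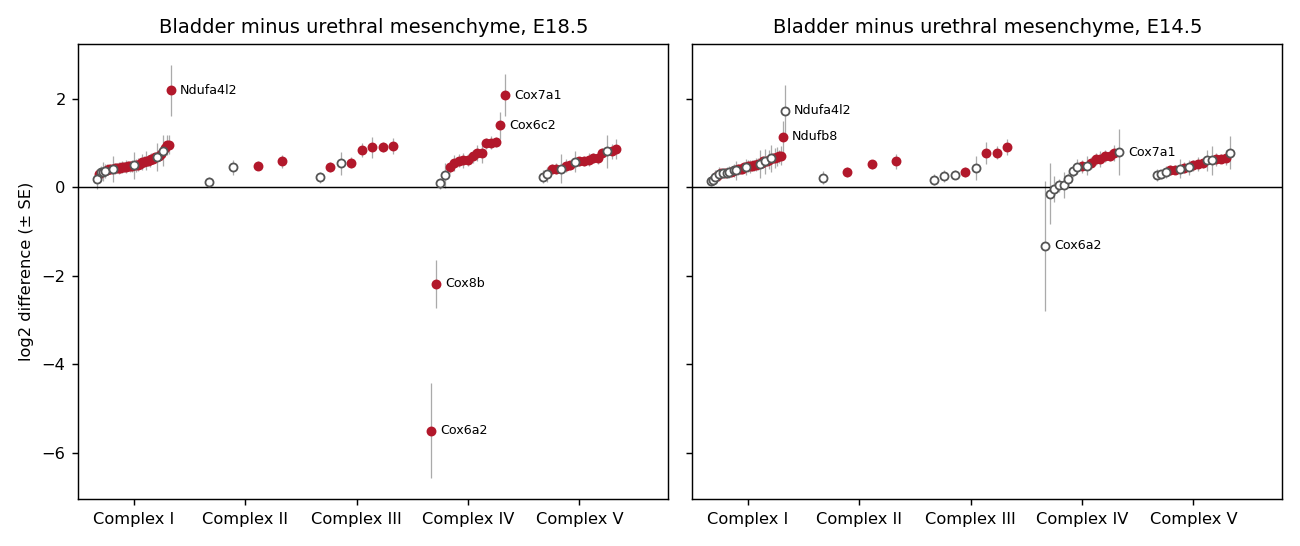
Log2 difference of bladder minus urethral mesenchyme for each of the 85 tested genes, by complex and sorted by value, with E18.5 in one panel and E14.5 in the other. Bars are the SE, filled points passed adjusted p under 0.05 (edgeR) and open points did not. Most points lie between 0 and 1, and Cox6a2 and Cox8b at E18.5 are the only filled points under 0.

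Among the entry enzymes of the chain, Ndufa4 had the highest mean RPKM of the complex I group. It was first described with complex I and has since been found at complex IV. It stood at 107.8, 223.6 and 173 RPKM in E18.5 bladder libraries and 78.8, 92.3 and 86.3 in E18.5 urethral libraries (log2 difference 0.97 ± 0.22 SE, adjusted p = 0.00436). At E14.5 it stood at 199.7, 162.8 and 182.8 RPKM in bladder and 100.6, 137.3 and 97.9 in urethra (0.70 ± 0.22, adjusted p = 0.036). The groups did not overlap at either stage, though the E14.5 call was lost in 8 of 21 alternatives. Ndufb8, a membrane-arm subunit needed for a stable complex I, varied widely between libraries, with 61.9, 29.2 and 49.2 RPKM in E14.5 bladder, against 18.7, 26.7 and 18.2 in E14.5 urethra. Its log2 difference was 1.14 ± 0.35 (adjusted p = 0.0367) at E14.5 and 0.83 ± 0.35 (adjusted p = 0.0924) at E18.5. Its E14.5 call was lost in 11 of 21 alternatives, and at E18.5 bladder libraries ran from 14.6 to 41.9 RPKM and overlapped the urethral range of 15.9 to 17.5. Ndufb9, another membrane-arm subunit, was higher in bladder at both stages (0.60 ± 0.22, adjusted p = 0.0488 at E18.5 and 0.72 ± 0.22, adjusted p = 0.0312 at E14.5). The E18.5 call was lost in 15 of 21 alternatives, among them the fit with replicate pairs as a block (0.552, adjusted p = 0.0769), and the E14.5 call in 6, and 19.5% of its exon bases overlap another gene of the same strand.

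In complex II, Sdhc, a membrane anchor, was called higher in bladder at both stages, by 0.49 ± 0.10 at E18.5 and 0.52 ± 0.10 at E14.5 (adjusted p = 0.00221 and 0.00327). Sdha, the flavoprotein that oxidises succinate, was higher at E18.5 (79.4, 60.3 and 68.3 RPKM in bladder, 45.7, 46.3 and 46.3 in urethra, log2 difference 0.59 ± 0.15, adjusted p = 0.00717). At E14.5 its libraries overlapped, at 54.6, 69.3 and 60.7 RPKM in bladder and 57.5, 42.6 and 58.1 in urethra (0.22 ± 0.15, adjusted p = 0.283). Sdhb, the iron-sulphur subunit, was the reverse, called at E14.5 (0.35 ± 0.12, adjusted p = 0.0471) and not at E18.5 (0.13 ± 0.12, adjusted p = 0.446). Its E14.5 call was lost in 15 of 21 alternatives, at 0.229 without E14.5 bladder replicate 3 (adjusted p = 0.206). The test of the change between stages did not pass for either gene (adjusted p = 0.303 for Sdha and 0.453 for Sdhb). Sdhd, the other anchor and the most abundant of the 4 genes, was higher at E14.5 (0.59 ± 0.17, adjusted p = 0.0269, lost in 7 of 21 alternatives) and did not pass at E18.5 (0.46 ± 0.17, adjusted p = 0.0583).

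Complex III held some of the steadiest differences. Uqcr11, a small subunit, stood at 99.6, 157.5 and 143.6 RPKM in E18.5 bladder and 62.4, 73.0 and 73.1 in E18.5 urethra, and at 166.9, 116.8 and 135.3 in E14.5 bladder and 68.0, 85.8 and 66.95 in E14.5 urethra. The log2 difference was 0.94 ± 0.18 at E18.5 and 0.92 ± 0.18 at E14.5 (adjusted p = 0.00148 and 0.00362), nearly 2-fold with no overlap of libraries. Uqcr10, with the highest RPKM of the group averaged over all libraries though Uqcrh led in both urethral groups, followed at 0.85 ± 0.16 and 0.79 ± 0.16 (adjusted p = 0.00109 and 0.00384). Per length of the principal transcript Uqcrh led in every group, with a mean of 316.4 CPM per kilobase against 192.3 for Uqcr10. Of 5 tested chain genes whose symbols the rule does not take, 3 were called higher in bladder at E18.5 and 1 at E14.5. These are 60% and 20%, against 18.52% and 12.42% of all genes. Cyc1, the cytochrome subunit of complex III, was higher in bladder at both stages (0.42 ± 0.10 and 0.39 ± 0.10, adjusted p = 0.00549 and 0.0143).

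In complex V, Atp5a1 and Atp5b encode the alpha and catalytic beta subunits of the head. Atp5a1 had the highest mean RPKM of the complex, with 410.5, 360.4 and 351 in E18.5 bladder and 227, 239.3 and 242.1 in E18.5 urethra (log2 difference 0.66 ± 0.14, adjusted p = 0.00243), while at E14.5 it did not pass (0.34 ± 0.14, adjusted p = 0.086). Per length of the principal transcript, Atp5b (mean 530.1 CPM per kilobase) and Atp5g3 (415.1) lay above Atp5a1 (407.3). Atp5b was higher in bladder at both stages (0.77 ± 0.12 and 0.40 ± 0.12, adjusted p = 0.000371 and 0.03), the E14.5 call being lost in 9 of 21 alternatives. Atp5k, the subunit e that helps ATP synthase form dimers, was higher in bladder by 0.82 ± 0.17 at E18.5 and 0.68 ± 0.17 at E14.5 (adjusted p = 0.00241 and 0.0129). Atp5mpl, a small membrane proteolipid of the complex, was higher at E18.5 (0.87 ± 0.22, adjusted p = 0.00771). Atp5g1, Atp5g2 and Atp5g3 each encode the same c-ring protein with different import signals, and all 3 were called higher in bladder at both stages, with log2 differences of 0.59 to 0.66 at E18.5 and 0.50 to 0.65 at E14.5. Atp5g3 was the most abundant of the 3 at 137.2, 172.3 and 156.7 RPKM in E18.5 bladder, while Atp5g1 held 14.04 to 16.84, with near-identical copies holding a further 47.4% as many counts.

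**Figure D3:**
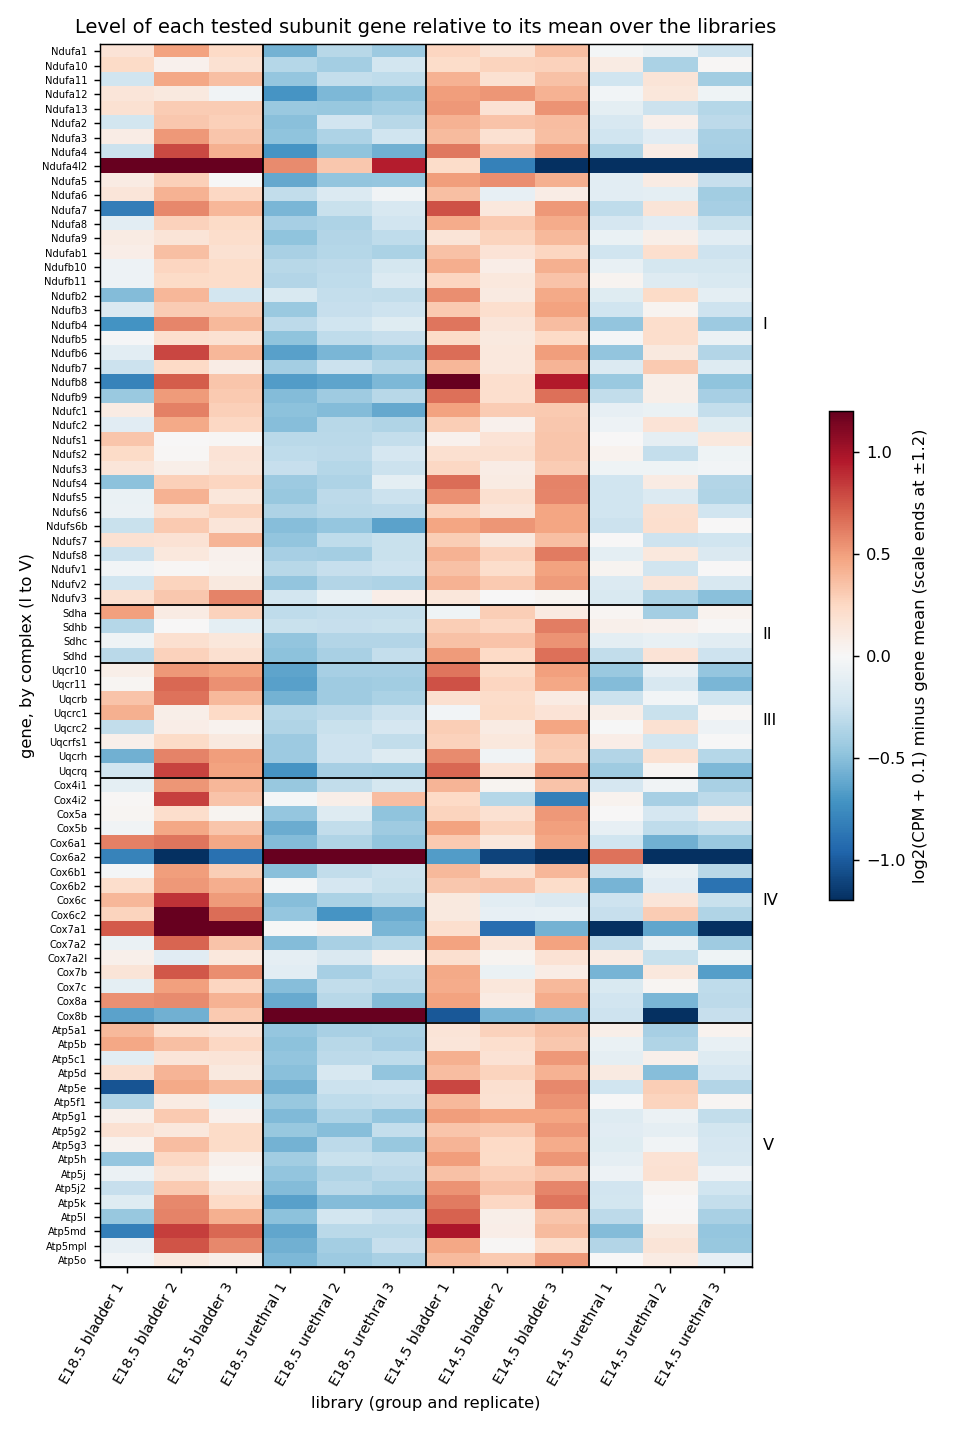
Level of each of the 85 tested genes in each of the 12 libraries as log2(CPM + 0.1) minus the gene's mean over the libraries, red above and blue below that mean, with genes in rows by complex and libraries in columns by group. Bladder columns are mostly red and urethral columns mostly blue, with E18.5 bladder replicate 1 paler than its group and Cox6a2, Cox8b and Ndufa4l2 standing apart.

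Cox6a2 and Cox8b, both restricted isoforms, were the only genes of the 85 called lower in bladder at E18.5. Cox6a2, the form of subunit 6a known from heart and skeletal muscle, had 2, 0 and 2 counts in E18.5 bladder libraries and 113, 65 and 69 in E18.5 urethral libraries, or up to 0.110 RPKM in bladder and 2.97 to 4.22 in urethra (log2 difference -5.50 ± 1.08, adjusted p = 0.00148). On the opposite strand Itgad overlaps 10.3% of its exon bases. Cox8b, the matching form of subunit 8, had 4, 3 and 12 counts in E18.5 bladder and 50, 25 and 34 in E18.5 urethra (-2.18 ± 0.54, adjusted p = 0.00715). At E14.5 both were near the limit of detection, with 2, 1 and 0 counts of Cox6a2 in bladder and 10, 0 and 0 in urethra, and 2, 4 and 4 counts of Cox8b in bladder and 6, 2 and 6 in urethra. The 10 Cox6a2 counts of E14.5 urethra all lay in urethral replicate 1. In urethra the E18.5 level was higher than the E14.5 level for both (log2 differences 4.39 ± 0.95 for Cox6a2 and 2.75 ± 0.57 for Cox8b, adjusted p = 0.00591 and 0.0047).

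Their partners went the other way. Cox6a1 stood at 270.4, 278.4 and 245.7 RPKM in E18.5 bladder and 124.3, 138.1 and 127.8 in E18.5 urethra, a log2 difference of 1.03 ± 0.12 (adjusted p = 4.99e-05), and Cox8a at 328, 331.9 and 299.2 in bladder and 147.1, 177.9 and 156.2 in urethra (1.00 ± 0.13, adjusted p = 0.000114). Both were higher in bladder at E14.5 too (0.72 ± 0.12 and 0.71 ± 0.13, adjusted p = 0.00135 and 0.00243). Cox6a2 made up 0.0263% ± 0.0228 of the summed RPKM of the pair in E18.5 bladder and 2.77% ± 0.506 in E18.5 urethra, and Cox8b 0.205% ± 0.13 and 1.88% ± 0.404 of its pair (SD, n = 3), so the widely expressed form made up most of each pair in every group.

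Skeletal muscle markers moved with Cox6a2 and Cox8b. Of 18 markers, 9 were called lower in E18.5 bladder than in urethra and 3 higher, against 16.24% and 18.52% of all genes. In urethra 17 were higher at E18.5 than at E14.5, against 13.6% of all genes. Myod1, the regulator that sets skeletal muscle fate, stood at 0, 0.107 and 0.064 CPM in E18.5 bladder and 46.8, 42.5 and 31.5 in E18.5 urethra, and at 10.2 CPM in E14.5 urethral replicate 1 against 0.680 and 1.62 in replicates 2 and 3. Myf6 had 0 counts in all 3 E18.5 bladder libraries. The summed list was nonetheless higher in E18.5 bladder (3186 to 5114 CPM, against 1132 to 1710 in urethra), since Acta1 (2342 to 3692 CPM in bladder) and Ckm (463 to 690) were called higher there. Of 3 tested brown fat markers, 2 were also called lower in E18.5 bladder than in urethra and 0 higher. Between stages in urethra, 1 brown fat marker was higher and 1 lower at E18.5. The part of muscle or brown fat cells in these isoform differences was not tested. Of 5 cardiac markers, 3 were called higher in bladder than in urethra at E18.5 and 2 at E14.5, opposite to Cox6a2 and Cox8b. Over all genes these shares were 18.52% and 12.42%. The cardiac sums were 793 to 1178 CPM in E18.5 bladder and 87.7 to 104.5 in E18.5 urethra.

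Cox7a1, the contractile-tissue form of subunit 7a, did not follow Cox6a2 and Cox8b. It stood at 3.07, 9.02 and 8.08 RPKM in E18.5 bladder and 1.76, 1.84 and 1.15 in E18.5 urethra, so all bladder libraries lay above all urethral ones (log2 difference 2.08 ± 0.47, adjusted p = 0.00415). At E14.5 it stood at 2.05, 0.852 and 1.13 RPKM in bladder and 0.636, 1.08 and 0.549 in urethra, with overlap (0.80 ± 0.52, adjusted p = 0.28). Its partner Cox7a2 was higher in bladder at both stages (0.78 ± 0.18 and 0.64 ± 0.18, adjusted p = 0.00421 and 0.0199), and Cox7a1 held 4.00% ± 1.24 of the pair in E18.5 bladder, 1.73% ± 0.472 in E18.5 urethra, 0.835% ± 0.32 in E14.5 bladder and 0.729% ± 0.176 in E14.5 urethra. Smooth muscle markers moved in the same direction. All 10 were called higher in E18.5 bladder than in urethra, with sums of 23517 to 43538 CPM in bladder and 2616 to 2919 in urethra. At E14.5, 8 of 10 were called higher, with sums of 6567 to 8628 in bladder and 1726 to 3676 in urethra. Over all genes 18.52% were higher in bladder at E18.5 and 12.42% at E14.5. Whether muscle content set the level of Cox7a1 or of the other subunits was not tested.

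Ndufa4l2, the paralogue of Ndufa4 known to be induced in low oxygen, had the largest bladder stage difference and the largest positive compartment difference of the 85 at both stages. It stood at 367.3, 329.1 and 301.8 RPKM in E18.5 bladder, 69.0, 58.3 and 90.0 in E18.5 urethra, 54.4, 26.5 and 12.8 in E14.5 bladder and 19.0, 4.85 and 4.53 in E14.5 urethra. All libraries of E18.5 lay above all of E14.5, and bladder above urethra at E18.5, while the compartments overlapped at E14.5. The log2 difference of E18.5 minus E14.5 was 3.41 ± 0.61 in bladder and 2.94 ± 0.61 in urethra (adjusted p = 0.00108 and 0.00663), and that of bladder minus urethra 2.2 ± 0.58 at E18.5 (adjusted p = 0.0124) and 1.73 ± 0.59 at E14.5 (adjusted p = 0.0537). Its share of the summed RPKM with Ndufa4 was 66.8% ± 9.32 in E18.5 bladder, 45.5% ± 6.25 in E18.5 urethra, 14% ± 7.43 in E14.5 bladder and 7.91% ± 6.94 in E14.5 urethra (SD, n = 3). Per length of the principal transcript, which is much shorter than the deposited exon length for Ndufa4, the shares were 48.2% ± 10.9, 27.5% ± 4.95, 6.94% ± 3.94 and 3.82% ± 3.5 in the same order, so which gene of the pair was higher in E18.5 bladder depends on the length used.

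Other genes known to respond to low oxygen moved with it. Of 10 listed, 8 were called higher at E18.5 than at E14.5 in bladder and 8 in urethra, against 23.72% and 13.6% of all genes. Between compartments, 4 and 5 were called higher in bladder at E18.5 and E14.5, against 18.52% and 12.42% of all genes. Adm, which encodes adrenomedullin, averaged 31.9 ± 9.37 CPM in E18.5 bladder and 4.32 ± 0.564 in E14.5 bladder (SD, n = 3, log2 difference 2.88 ± 0.31, adjusted p = 2.75e-05). Pericytes are cells that express Ndufa4l2 in other mouse tissues. Of 7 pericyte markers, 4 were called higher at E18.5 in each compartment (57.1%). In E18.5 bladder, however, 4 were lower than in urethra (57.1%) and 1 higher (14.3%), against 16.24% and 18.52% of all genes. Their sums were 668 to 907 CPM in E18.5 bladder and 886 to 963 in E18.5 urethra. Neither link was tested.

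**Figure D4:**
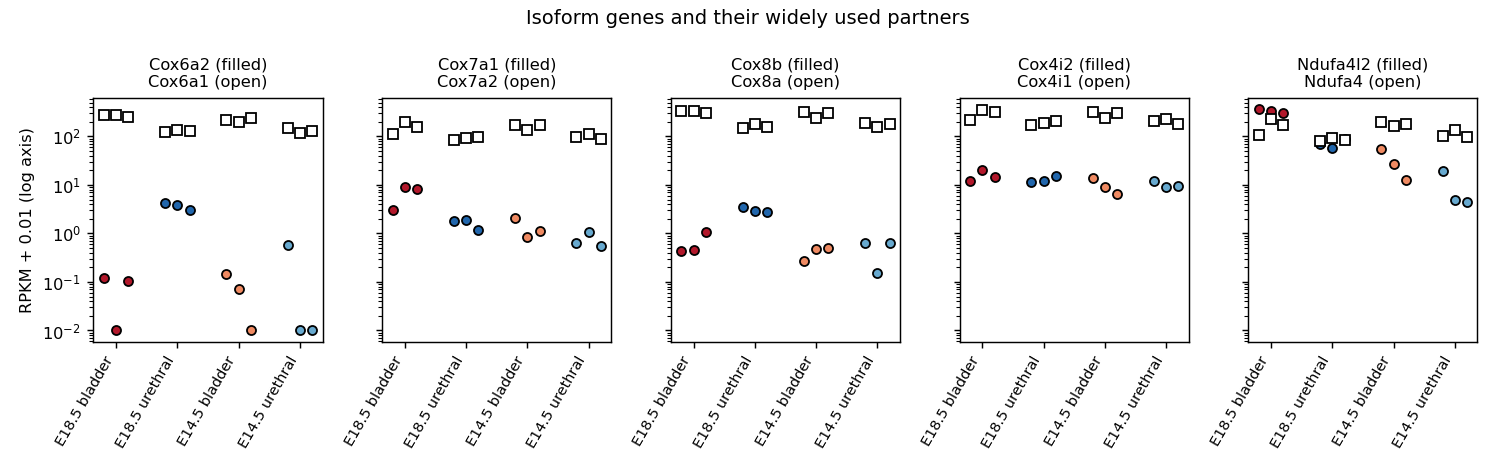
RPKM + 0.01 in each library, on a log axis, of 5 restricted genes (filled circles) and their widely expressed partners (open squares), by group, with libraries of 0 counts at 0.01. Cox6a2 and Cox8b are highest in E18.5 urethra, Cox7a1 in E18.5 bladder, and Ndufa4l2 is near Ndufa4 in E18.5 bladder, above it by deposited exon length and not by principal transcript length.

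Cox4i2, the lung and low-oxygen form of subunit 4, averaged 5.13% ± 0.589 of the pair with Cox4i1 in E18.5 bladder, 6.40% ± 0.463 in E18.5 urethra, 3.34% ± 1.07 in E14.5 bladder and 4.72% ± 0.931 in E14.5 urethra, and these shares are lower by principal transcript length (2.76%, 3.47%, 1.79% and 2.54%). Between stages in bladder Cox4i2 had a log2 difference of 0.68 ± 0.29 (adjusted p = 0.0706) and Cox4i1 of 0.03 ± 0.17 (adjusted p = 0.907). Its compartment difference passed at neither stage (0.28 ± 0.28 at E18.5 and -0.03 ± 0.29 at E14.5, adjusted p = 0.497 and 0.944). Cox4i1 had the highest RPKM of complex IV averaged over all libraries, though Cox8a led in E18.5 bladder and Cox6b1 in E14.5 bladder. Per length of the principal transcript Cox4i1 led in every group, at 598.2 CPM per kilobase against 359.8 for Cox8a in E18.5 bladder. Cox4i1 was higher in bladder at E18.5 (219.2, 342.3 and 312.6 RPKM in bladder, 172.5, 193 and 204.4 in urethra, 0.62 ± 0.17, adjusted p = 0.0129) and at E14.5 had a difference of 0.47 ± 0.17 (adjusted p = 0.0594). Cox6b2, a form of subunit 6b known from testis, was higher in bladder at both stages (0.56 ± 0.18 and 0.79 ± 0.18, adjusted p = 0.028 and 0.00807), as was Cox6b1 (0.62 ± 0.14 and 0.55 ± 0.14, adjusted p = 0.00377 and 0.0129). Cox7a2l, which joins complexes III and IV into supercomplexes, showed the smallest difference of the 85 at E18.5 (0.09 ± 0.12, adjusted p = 0.609).

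The change of the compartment difference between stages passed for 2 of the 85 genes and in 1 direction, against 4.642% of all genes with a positive and 4.031% with a negative change. The median change was 0.09 for the 85 and 0.02 for all genes. Cox6c, a small subunit at the rim of complex IV, stood at 53.0, 73.0 and 57.1 RPKM in E18.5 bladder and 28.1, 30.8 and 32.0 in E18.5 urethra, a log2 difference of 1.01 ± 0.15 (adjusted p = 0.000281). At E14.5 it overlapped fully, at 43.5, 36.7 and 35.5 RPKM in bladder and 33.8, 44.4 and 33.3 in urethra (0.05 ± 0.15, adjusted p = 0.832), so the difference grew by 0.96 ± 0.21 (adjusted p = 0.0163). Uqcrb, the ubiquinone-binding subunit of complex III, was higher in bladder at both stages, by 0.93 ± 0.11 at E18.5 and 0.34 ± 0.11 at E14.5, and the difference grew by 0.58 ± 0.16 (adjusted p = 0.0386). The Uqcrb call was lost in 9 of the 12 fits that left out 1 library, all but those without replicate 1 of E18.5 bladder, E14.5 bladder or E14.5 urethra, and over the 12 its change lay between 0.485 and 0.64, with adjusted p of 0.0398 to 0.1. The Cox6c call held in all 12.

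Between stages within bladder, 13 of the 85 genes were called lower at E18.5 than at E14.5 and 5 higher, against 21.99% and 23.72% of all genes. The median log2 difference was -0.11 for the 85 and -0.02 over all genes. Complex V held 6 of the 13, complex I 4, complex II 2 and complex III 1. Sdhb fell furthest of the called genes, with 36.1, 46.0 and 42.3 RPKM in E18.5 bladder and 56.1, 54.3 and 70.0 in E14.5 bladder (-0.54 ± 0.12, adjusted p = 0.00283). Atp5f1 and Atp5h, parts of the peripheral stalk that holds the head of ATP synthase still, fell by 0.48 and 0.45 on the log2 scale (SE 0.14 and 0.17, adjusted p = 0.0139 and 0.0456), though the Atp5h call was lost in 12 of 21 alternatives (-0.267 without E18.5 bladder replicate 1), and copies of Atp5h held a further 12.3% as many counts. Ndufs8, an iron-sulphur subunit on the electron path of complex I, fell by 0.46 (SE 0.13, adjusted p = 0.0123). The 5 that rose were Ndufa4l2, Cox7a1 (2.32 ± 0.49, adjusted p = 0.00202), Cox6c (0.66 ± 0.15, adjusted p = 0.0034), Cox6c2 and Uqcrb (0.30 ± 0.11, adjusted p = 0.0446). Both counts moved with single libraries, and the number called lower was 4 without E18.5 bladder replicate 1, 4 without E14.5 bladder replicate 3, 8 without E14.5 bladder replicate 1 and 7 without E18.5 bladder replicate 3. Those fits called 18.3%, 15.9%, 20.4% and 17.6% of all genes lower, in the same order.

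Within urethra 7 genes were called lower at E18.5 and 3 higher, against 10.78% and 13.6% of all genes, with a median log2 difference of -0.24 for the 85 and -0.06 over all genes. The summed level at E18.5 was 0.851 of that at E14.5, and 40 of the 85 genes (47.1%) had all E18.5 libraries under all E14.5 libraries, against 22.7% of all tested genes. Ndufa12, an accessory subunit of complex I, stood at 12.8, 14.4 and 14.9 RPKM in E18.5 urethra and 20.4, 22.9 and 20.1 in E14.5 urethra (-0.59 ± 0.11, adjusted p = 0.00299), and fell in bladder as well (-0.41 ± 0.11, adjusted p = 0.00884). The copy Gm15920, 99.5% identical over 402 bases, held 92.1% as many counts as Ndufa12, so its level is uncertain. Atp5o, the subunit through which oligomycin sensitivity is conferred, fell by 0.46 in urethra and 0.36 in bladder on the log2 scale (SE 0.10 each, adjusted p = 0.00733 and 0.0125), but its counts are uncertain: 31.1% of its exon bases overlap a gene on the opposite strand, 12.7% one on its own strand, and a copy held 10.9% as many counts. In all 5 genes were lower in both compartments, which is 38.5% of the bladder calls and 71.4% of the urethral calls, close to the 37.4% and 76.2% over all genes. The urethral count was 2 without E18.5 urethral replicate 1, 3 without replicate 2, 4 without replicate 3 and 13 without E18.5 bladder replicate 1. Those fits called 6.8%, 5.18%, 5.21% and 10.9% of all genes lower, in the same order. Ranked by group mean, E18.5 urethra was lowest for 76 of the 85 genes (89.4%, against 23.1% of all tested genes) and E14.5 bladder highest for 64 (75.3%, against 26.8%).

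**Figure D5:**
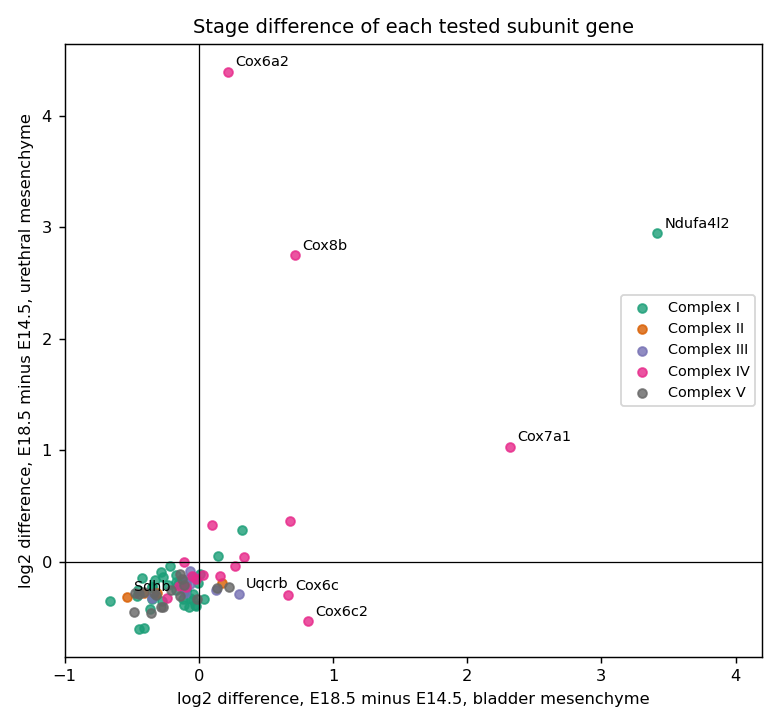
Log2 difference of E18.5 minus E14.5 for each of the 85 tested genes, in bladder mesenchyme on the horizontal axis and in urethral mesenchyme on the vertical axis, coloured by complex. Most genes lie between -0.7 and 0.4 on both axes, and Ndufa4l2, Cox7a1, Cox6a2 and Cox8b stand apart at 2 or more on at least 1 axis.

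Genes around the chain gave a mixed background, and their counts are to be read against the shares over all genes given above. Of 77 mitochondrial ribosome genes, which make the mitochondrially encoded subunits, 19 were called higher in bladder at E18.5 and 21 at E14.5, none lower, and 45 were lower at E18.5 in bladder and 20 in urethra. Their sum was 2740 ± 324.3 CPM in E18.5 bladder and 3781 ± 329.8 in E14.5 bladder. Of 17 complex I assembly factors, 1 was higher in bladder at each stage and 1 lower at E18.5, while 9 were lower at E18.5 in bladder and 5 in urethra. Citric acid cycle genes resembled the subunits at E18.5, with 12 of 13 higher in bladder, and 3 of 13 at E14.5. Suclg2, a subunit of succinyl-CoA ligase, was higher by 1.00 ± 0.14 at E18.5 (adjusted p = 0.000153). Of 12 fatty acid oxidation genes, 9 were higher in bladder at E18.5 and 5 at E14.5, and the difference grew for 4. Acadl, a long-chain acyl-CoA dehydrogenase, averaged 291.1 ± 5.99 CPM in E18.5 bladder and 83.7 ± 12.8 in E18.5 urethra (1.80 ± 0.14, adjusted p = 3.52e-06). Of 20 glycolysis genes, 15 were higher in bladder at E18.5, and 17 were higher at E18.5 than at E14.5 in bladder and 9 in urethra, where 1 was lower.

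Known regulators of mitochondrial genes did not share the pattern. Of 16, 3 were called higher (18.8%) and 2 lower (12.5%) in bladder at E18.5, near the 18.52% and 16.24% of all genes. At E14.5, 0 were called higher and 3 lower (18.8%), against 12.42% and 12.45% of all genes. Ppargc1a, a coactivator of mitochondrial biogenesis, averaged 4.15 ± 1.16 CPM in E18.5 bladder and 14.9 ± 1.22 in E18.5 urethra (log2 difference -1.84 ± 0.28, adjusted p = 0.000338). Esrrg, an oestrogen-related receptor, was lower in bladder too (-2.95 ± 0.36, adjusted p = 6.76e-05), while Esrra was higher (0.60 ± 0.14, adjusted p = 0.00536). Tfam, which packages and transcribes mitochondrial DNA, was lower at E18.5 in both compartments (-0.70 ± 0.10 in bladder and -0.61 ± 0.10 in urethra, adjusted p = 0.000181 and 0.00168).

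Some values carry a counting uncertainty. Near-identical annotated copies, at least 95% alike over at least 100 bases, exist for 25 of the 89 genes, and for 12 the copies held over 10% of the member's own counts, so reads could have been split. Adding the copies' counts left 64 and 48 genes called higher in bladder at E18.5 and E14.5. Ndufa11b, Ndufb4c, Ndufs6b and Cox6c2 are annotated as processed pseudogenes. Cox6c2 is 97.0% identical to Cox6c over 231 bases, and its higher level in E18.5 bladder (log2 difference 1.41 ± 0.31 against urethra, adjusted p = 0.00321) cannot be told apart from that of Cox6c. The genes that did not pass the filter were Ndufa11b with 0 counts, which allows up to 0.0825 to 0.14 CPM depending on the library, Ndufb4c with 59 counts over the 12 libraries, Cox7b2 with 10 and Cox8c with 2. For 30 genes the deposited exon length was more than 2 times the length of the principal transcript, so their RPKM is too low against genes with 1 transcript.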

How the data were processed

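The authors deposited raw read counts per gene, with each gene's summed exon length in bases (an annotation column the authors supplied, of no other unit), in 1 table per stage. Per the submitters' processing notes, HISAT2 2.2.1, SAMtools 1.9 and bcl2fastq were used with GRCm38. The counting tool, strand setting and annotation are not given in the sources used here. The members and gene lists were chosen with earlier results of these data known.

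Both tables were joined by gene. Genes passed edgeR's filterByExpr (minimum count 10), counts were scaled by TMM, and 1 quasi-likelihood model over the 12 libraries (8 residual degrees of freedom) tested 5 contrasts, with Benjamini-Hochberg adjustment over 18805 genes and a threshold of 0.05. P-values measure the spread between 3 litters per group and stage. RPKM is CPM per kilobase of deposited exon length. An observed count of 0 allows up to 3 counts, or 0.0825 to 0.14 CPM, for counting error only.

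The genes named were, per complex and comparison, up to 2 called members with the largest difference in each direction, the member with the highest mean RPKM, isoform pairs, members not tested, and up to 2 genes per pathway or marker list. Acta1 and Atp5b fall outside this rule and were chosen after their values were seen.

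Same-numbered bladder and urethral libraries of E18.5 deviated together (correlations 0.197, 0.193 and 0.286), so their numbers were taken to pair them. At E14.5 those of replicates 1 and 3 did so (0.192 and 0.206) and those of replicate 2 did not (-0.029), so pairing there is uncertain. The main fit left pairing out, and all results not named as an alternative come from it. The block per stage and replicate number, an alternative, paired the libraries at both stages for the compartment differences and their change. For the contrasts between stages the block was the replicate number shared across stages, which pairs no litters. Start regions came from RefSeq (GRCm38.p6) and copies from BLAST 2.17.0 over GENCODE transcripts. R 4.3.3, edgeR 4.0.16, limma 3.58.1, DESeq2 1.42.0 and Python 3.11.15 were used. Fits were tested on simulated data. Alternatives were other size factors, DESeq2, no filter, separate stages, a replicate block, removal of the length trend, each library left out, both first E14.5 libraries left out and, chosen after seeing the data, plain library totals and copies' counts added.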

Additional observations from a re-analysis of the deposited data

Results flagged for a closer look

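For 2 genes the bladder minus urethra difference itself changed between the stages by edgeR's quasi-likelihood test. These are 2.35% of the 85, below the 4.642% of all genes called in that direction. Cox6c had a change of 0.96 ± 0.21 on the log2 scale (SE, adjusted p = 0.0163), with a difference of 1.01 at E18.5 and 0.05 at E14.5. Uqcrb had a change of 0.58 ± 0.16 (adjusted p = 0.0386), with 0.93 at E18.5 and 0.34 at E14.5. The Uqcrb call was lost in 9 of the 12 fits that left out 1 library. Annotated near-identical copies held 9.01% as many counts as Uqcrb, and with the copies' counts added the Uqcrb change was 0.568 (adjusted p = 0.0408).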

How the results depend on the processing

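A percentage in brackets is the share of all genes called in the same direction under that setting. The E18.5 counts of 64 higher and 2 lower were 22 (10%) and 2 (30%) under plain library totals. They ranged over 46 to 75 higher and 2 to 2 lower when 1 library was left out. The E14.5 count of 48 higher was 26 from the E14.5 libraries alone (7.97%), 24 without both first E14.5 libraries (11.3%) and 19 under library totals (8.33%). It was 19 to 56 when 1 library was left out, with 0 lower throughout. For the change between stages, 2 higher became 1 with no low-count filter (2.45%), 5 with the length trend removed (4.11%) and 0 under library totals (2.94%). The counts were 1 to 2 higher and 0 to 1 lower when 1 library was left out. In bladder, 5 higher at E18.5 became 3 with no filter (13.3%), 3 from the compared libraries alone (24.6%), 12 with the length trend removed (22.8%) and 3 under library totals (18.6%). The count was 3 to 7 with 1 library left out. There 13 lower became 8 with no filter (11.4%), 7 from the compared libraries (20%), 7 without both first E14.5 libraries (20.9%) and 29 under library totals (31.2%). With 1 library left out it was 4 to 19. In urethra, 7 lower became 14 with the length trend removed (11.1%). With 1 library left out the counts were 2 to 13 lower and 3 to 4 higher. The cause was not tested. With the block per stage and replicate number the counts were 63 and 2 at E18.5, 43 and 0 at E14.5 and 2 and 0 for the change. With a block by replicate number shared across stages they were 4 and 13 between stages in bladder and 3 and 7 in urethra. That shared block joins libraries of different litters and so is no check of pairing. Among the genes described, the block per stage and replicate number ended the calls of Ndufb9 at E18.5 (0.552) and of Sdhb and Atp5b at E14.5 (0.341 and 0.402). It brought that of Ndufa4l2 at E14.5 past the threshold (1.82, adjusted p = 0.00114). The block by shared replicate number ended that of Cox6c2 between stages in bladder (0.779).

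Among single genes, 2763 alternative values kept direction and call, 526 kept direction and lost the call, 6 gained it and 13 changed sign. Differences that were not called changed sign at E14.5 for Cox6a2 (2.542 without both first libraries, -2.245 to 3.432 with 1 library left out), Cox8b (0.377 and -0.618 to 0.163) and Cox4i2 (-0.372 to 0.189). The change between stages of Ndufa4l2 ranged from -0.533 to 1.148 with 1 library left out. Under library totals the E18.5 difference of Ndufv1, called higher in bladder in the main fit, also changed sign, to -0.016. Those of Cox4i2 and Cox7a2l, which were not called, were -0.031 and -0.219. The E18.5 calls of Cox6a2, Cox8b and Cox7a1 held under all 21 alternatives.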

Other observations

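Assembly factors build the complexes without being part of them, and their calls by edgeR's quasi-likelihood test were mostly lower at E18.5. At E18.5 against E14.5 in bladder, 9 of 17 factors of complex I, 4 of 4 of complex II, 3 of 6 of complex III, 4 of 23 of complex IV and 1 of 4 of complex V were lower, and 2 of the complex IV factors were higher. Over all genes 21.99% were called lower and 23.72% higher in bladder, and the complex IV factors, at 17.4% and 8.7%, lay under both. In urethra 5, 2, 1, 1 and 1 were lower for complexes I to V in that order, against 10.78% of all genes. Of 13 coenzyme Q genes, 3 were higher and 3 lower at E18.5 in bladder, or 23.1% each way, near the shares over all genes.

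Markers of cells beyond mesenchyme and muscle differed as well. All 9 neuronal markers were lower in bladder than in urethra at E18.5 and 8 of 9 at E14.5, and 4 of 6 glial markers were lower at each stage. Of 6 erythroid markers, 4 were higher in bladder than in urethra at E14.5 and 1 at E18.5, and 6 were lower at E18.5 than at E14.5 in bladder and 2 in urethra. Of 5 leukocyte markers, 3 were higher at E18.5 than at E14.5 in bladder and 5 in urethra. Of 11 epithelial markers, 4 were higher in bladder at E18.5, against 1 higher and 4 lower at E14.5, and 11 were higher at E18.5 than at E14.5 in bladder and 5 in urethra. Of 6 endothelial markers, 2 were lower in bladder at E18.5 and 2 higher at E14.5, and the change between stages passed for 3. Over all genes, 18.52% were called higher and 16.24% lower in bladder than in urethra at E18.5, and 12.42% and 12.45% at E14.5. Between stages, 23.72% were higher and 21.99% lower at E18.5 in bladder, and 13.6% and 10.78% in urethra. The part of these cells in the levels of the subunit genes was not tested.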
